A study of Homo sapiens with 6 samples.

Results

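The genes described here encode the regulators of mitosis, the spindle assembly checkpoint and the centromere. They are 52 genes named by symbol, and all 52 were found among the 22925 genes of the deposited table. Poly(A) RNA was sequenced from the human fibrosarcoma line HT-1080. The treated cells received 20 μM PhenDC3 in 1% DMSO for 48 h and the control cells 1% DMSO alone for 48 h, with 3 libraries in each group. PhenDC3 is a ligand of G quadruplexes, stacked structures formed by guanine-rich DNA and RNA, which it stabilizes, and the comparison addresses how transcript levels differ with and without it. All libraries come from 1 cell line, and the labels do not say whether the replicates were separate cultures, so the spread that the p-values rest on is that of these libraries and may be technical.

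Entry into mitosis is driven by CDK1 bound to cyclin A or B, which is held in check by inhibitory phosphorylation until CDC25 phosphatases remove it. The spindle assembly checkpoint then delays anaphase until kinetochores, built on CENPA-containing centromeres, are attached to microtubules. The anaphase-promoting complex (APC/C), with CDC20 or FZR1 as its activator, ends mitosis by marking securin and cyclin B for destruction. Most of these genes are transcribed in G2 and mitosis, under the MuvB complex with MYBL2 and FOXM1, so their transcripts in a culture depend on how many cells are in those phases. In bulk RNA, fewer cells in a phase and less RNA per cell cannot be told apart.

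The libraries held between 12574952 and 14292987 recovered reads in DMSO and between 7371056 and 9386691 in PhenDC3. Values are normalized counts, that is reads divided by the authors' size factor for the library, and means are given ± SD over 3 libraries. The mesenchymal markers VIM, FN1 and CDH2 were present, at 25153, 8465 and 1609 normalized counts in DMSO, and were called lower in PhenDC3, at 13620, 5265 and 907. COL5A1 (3107 in DMSO and 4795 in PhenDC3) and COL1A1 (53.9 and 83.2) were called higher, S100A4 was not called, and COL1A2 and THY1 stayed at 5.43 or less on average in both groups. Of 6 markers of other cell types in the table, 4 had means of 15.4 or less in both groups, among which ELF3 (0.259 in DMSO and 10.6 in PhenDC3) and CD68 (5.98 and 15.4) were called higher; CLDN4 (66.8 and 68.5) and EGFL7 (257 and 280) were not called. RNA of the mitochondrial genome took 3.72% to 3.96% of the reads in DMSO and 15.4% to 15.5% in PhenDC3. With the libraries scaled without these genes, 50 of the members described below were lower and 1 was higher, as with the deposited scaling, with a median log2 fold change of -1.01 against -1.03. DMSO replicate 3 stood apart from the other DMSO libraries, with chi-square values of 7.12 and 7.75 per degree of freedom against them and 1.77 between those. How this library bears on the members is described at the end.

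Transcripts of the mitotic genes fell together in PhenDC3. Of the 52 members, all of which passed the minimum mean of 5 normalized counts, 50 were lower, 1 was higher and 1 was not called (limma, Benjamini-Hochberg adjusted p under 0.05 over 16482 genes). Among all tested genes 30.4% were lower and 29.2% higher, 59.6% in either direction. The same count of 50 members lower came from edgeR (32.1% of its genes were lower), from DESeq2 (19.3%) and from the authors' deposited table (19.3%). The members' median log2 fold change was -1.03, against -0.02 over all tested genes. A called fall of 1 or more on the log2 scale was found in 30 members and in 6.46% of all tested genes. The one member that rose was FZR1, an activator of the APC/C, and the one not called was LIN54, the DNA-binding subunit of the MuvB complex.

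The fall was shared by the replicates. In 50 of the 52 members every PhenDC3 library lay below every DMSO library, which was so for 32.6% of all tested genes. FZR1 had every PhenDC3 library above every DMSO library, as 31.5% of all tested genes did. Summed over the 52 genes, the normalized counts were 74579, 77232 and 73087 in the DMSO libraries and 35488, 37582 and 36186 in the PhenDC3 libraries. The sum separated the groups with no overlap. As 50 of its 52 genes each did so in this direction, it adds nothing to the results for each gene. The distribution of the members' fold changes lay to the left of that of all tested genes, which centred near 0.

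**Figure D1:**
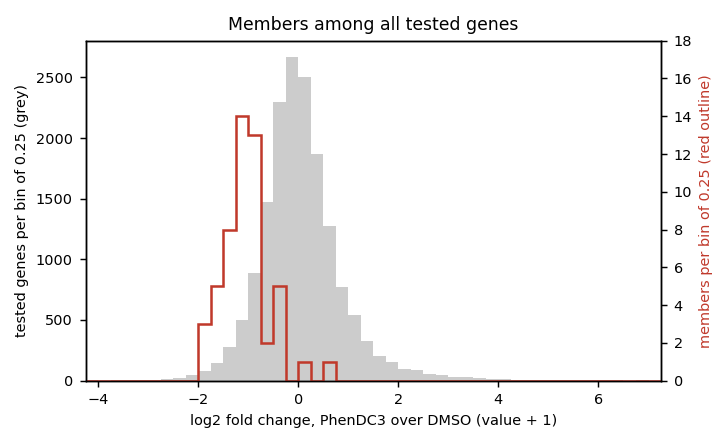
Log2 fold changes of PhenDC3 over DMSO, with the 16482 tested genes in grey (left axis, genes per bin of 0.25) and the 52 members as a red outline (right axis). The median of the members was -1.03 and that of all tested genes -0.02.

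The promoters of several members are shown because these genes fell together and because promoters of mitotic genes are known for a cell cycle homology region, a short element bound by the MuvB complex and often paired with CCAAT boxes bound by NF-Y. Promoter sequences came from RefSeq, on GRCh38.p14, and covered 44 of the 52 members with 60 windows of 300 bases, from 250 before to 50 after each annotated start. The sequences below are the 120 bases before the start, 5′ to 3′ on the strand of the gene. The first 4 come from 20 members chosen by name, as those whose TTTGAA lies wholly before the start and nearest to it, with ties taken in the order of that list; CKS2 tied with PLK1 and MKI67. In LIN9, NDC80 and CEP55, which are also among the 20, a TTTGAA beginning 3 bases before the start runs across it. FZR1 and LIN54 are shown as the members that were not lower. Capitals mark TTTGAA, its variant TTTAAA, and CCAAT or its reverse complement. The windows are CDK1 at chr10:60778358-60778477 (plus strand), CENPA at chr2:26785936-26786055 (plus strand), PLK1 at chr16:23678769-23678888 (plus strand), MKI67 at chr10:128126424-128126543 (minus strand), FZR1 at chr19:3506191-3506310 (plus strand) and LIN54 at chr4:83010824-83010943 (minus strand).
CDK1: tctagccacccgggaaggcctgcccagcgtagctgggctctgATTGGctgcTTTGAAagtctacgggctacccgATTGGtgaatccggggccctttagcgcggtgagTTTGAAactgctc
CENPA: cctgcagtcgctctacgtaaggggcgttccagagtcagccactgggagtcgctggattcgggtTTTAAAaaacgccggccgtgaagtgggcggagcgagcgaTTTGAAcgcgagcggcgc
PLK1: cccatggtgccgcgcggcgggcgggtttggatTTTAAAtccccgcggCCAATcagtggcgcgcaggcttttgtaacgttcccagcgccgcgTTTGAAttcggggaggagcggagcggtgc
MKI67: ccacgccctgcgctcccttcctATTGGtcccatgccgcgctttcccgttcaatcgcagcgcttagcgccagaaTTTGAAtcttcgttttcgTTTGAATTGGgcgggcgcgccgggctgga
FZR1: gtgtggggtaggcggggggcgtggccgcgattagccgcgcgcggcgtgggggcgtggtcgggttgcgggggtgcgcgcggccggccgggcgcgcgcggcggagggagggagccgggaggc
LIN54: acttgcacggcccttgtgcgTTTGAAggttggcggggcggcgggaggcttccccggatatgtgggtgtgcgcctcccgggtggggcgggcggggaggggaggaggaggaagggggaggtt

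TTTGAA began 13 bases before the start in CDK1, 18 bases before it in CENPA and 29 bases before it in PLK1 and in MKI67. In MKI67 the TTTGAA overlapped a reversed CCAAT box. The stretch of FZR1 held none of these motifs, and the TTTGAA of LIN54 lay 100 bases before the start. Each motif was searched on both strands of the whole window. TTTGAA was found for 31 of 44 members (70.5%), against 18.2% of all 27305 genes with a window and 13.9% of 9990 protein-coding genes tested here. By window it was in 58.3% of the members' windows and 15.2% of all 35116 windows. CCAAT was found for 34 of 44 members (77.3%), against 39.7% of all genes and 43.6% of tested protein-coding genes. TTTAAA, which reads the same on both strands, was found for 10 members (22.7%, against 14.5% of all genes).

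The E2F sequences TTTGGCGC, TTTCCCGC and TTTCGCGC were found for 4 of 44 members (CDC25A, CDK1, CENPA and NUSAP1), or 9.09% (exact 95% binomial interval 2.53% to 21.7%), against 3.30% of all genes and 5.66% of tested protein-coding genes, which lie within that interval. A potential G quadruplex, sought as 4 runs of at least 3 G that are 1 to 7 bases apart, was found for 13 of 44 members (29.5%), against 27.9% of all genes and 41.8% of tested protein-coding genes. The members' median log2 fold change was -0.97 over the 13 members with this pattern, of which 11 were lower. It was -1.10 over the 31 without, all of them lower. For TTTGAA the median was -1.03 over the 31 members with it and -1.18 over the 13 without, such as BUB1, AURKB and SPC24. For CCAAT the median was -1.10 over the 34 members with it, all of them lower. It was -0.76 over the 10 without CCAAT, of which 8 were lower. FZR1 and LIN54 both held TTTGAA somewhere in a window, 226 bases before the start in FZR1. Both also held the G quadruplex pattern, and neither held CCAAT. In LIN54 the pattern began 43 bases before the start, within the stretch shown, where it is not in capitals. Whether any of these motifs goes with the size or direction of the change was not tested. A match is a description of the sequence and does not show that a factor binds there.

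All 9 genes of the cyclin-CDK1 switch fell, with a median log2 fold change of -1.10, while 30.4% of all tested genes were lower. CCNB1 encodes cyclin B1, the partner of CDK1 at the onset of mitosis, and it had 2596, 2703 and 2805 normalized counts in the DMSO libraries and 1021, 1081 and 1140 in the PhenDC3 libraries. Its groups did not overlap, and it fell to 0.400 of its DMSO level (limma, log2 fold change -1.32, SE 0.07, adjusted p = 1.04e-12). No other of these 9 genes had a lower ratio. CDK1 itself had 1354, 1337 and 1432 in DMSO and 602, 674 and 643 in PhenDC3, or 0.466 of its DMSO level (adjusted p = 4.94e-11). CCNA2 (cyclin A2) and CCNB2 (cyclin B2) fell to 0.436 and 0.421.

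The CDC25 phosphatases, which activate cyclin-CDK complexes, had ratios from 0.410 to 0.710. CDC25C had 198, 227 and 216 normalized counts in DMSO and 87.6, 81.9 and 93.2 in PhenDC3, a fall to 0.410, and CDC25B fell to 0.565. CDC25A, which also acts earlier in the cycle at entry into S phase, had 420, 401 and 424 in DMSO and 299, 305 and 279 in PhenDC3, a fall to 0.710 (limma, log2 fold change -0.49, SE 0.08, adjusted p = 4.02e-05). Within libraries the ratio of CDC25C to CDC25A was 0.470, 0.568 and 0.509 in the DMSO libraries and 0.292, 0.268 and 0.333 in the PhenDC3 libraries, with no overlap and no test made. This pair was chosen after the values were seen. CDC25C shares 293 exonic bases with FAM53C on the opposite strand, which went from 679 to 1528, and the strand setting of the counting is not known here. The small CDK-binding proteins CKS1B and CKS2 fell to 0.473 and 0.590. CKS2 stood at 1195, 1263 and 1317 in DMSO and 729, 770 and 730 in PhenDC3. For CKS1B, which has processed copies in the genome, the division of reads among the copies is uncertain.

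The mitotic kinases outside this switch, with the activator TPX2, fell to between 0.491 and 0.531 of DMSO in all 4 genes. Of all tested genes 30.4% were lower. PLK1, a kinase of mitotic entry and centrosome maturation, had 2084, 2112 and 2265 normalized counts in DMSO and 1075, 1038 and 1173 in PhenDC3, which did not overlap (limma, log2 fold change -0.98, SE 0.07, adjusted p = 1.64e-10). AURKA, a spindle pole kinase, had 1781, 1740 and 1892 in DMSO and 821, 896 and 955 in PhenDC3 (0.494 of DMSO). Its activator TPX2 had the lowest ratio of this group, 0.491, and PLK4, the kinase that starts centriole duplication, the highest, 0.531.

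In the chromosomal passenger complex, which corrects wrong attachments at the centromere and later acts in cytokinesis, all 4 genes fell. The share lower over all tested genes was 30.4%. AURKB, its kinase, was at 912, 954 and 1012 normalized counts in DMSO and 394, 374 and 366 in PhenDC3, or 0.394 of DMSO (limma, log2 fold change -1.34, SE 0.08, adjusted p = 7.41e-12). BIRC5 (survivin) fell to 0.449 and CDCA8 (borealin) to 0.509. INCENP, the scaffold of the complex, fell the least, from 1216, 1209 and 1081 in DMSO to 898, 826 and 803 in PhenDC3, or 0.721 of DMSO. The ratio of AURKB to INCENP, a pair chosen after the values were seen, was 0.750, 0.790 and 0.936 in DMSO. It was 0.439, 0.452 and 0.456 in PhenDC3, so it too separated the groups, with no test made.

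Of the transcription factors of mitotic genes, 3 of 4 fell, and of all tested genes 30.4% were lower. MYBL2 (B-Myb) had 1035, 1090 and 1209 normalized counts in DMSO and 488, 481 and 493 in PhenDC3, or 0.439 of DMSO (limma, log2 fold change -1.18, SE 0.07, adjusted p = 4.34e-11). FOXM1 had 2091, 2101 and 1898 in DMSO and 1159, 1042 and 1069 in PhenDC3, or 0.537 of DMSO. These are factors that are themselves transcribed with the cell cycle. FOXM1 shares 781 exonic bases with ITFG2 on the opposite strand, whose mean was 176 in DMSO and 199 in PhenDC3. LIN9, a core subunit of MuvB, had 212, 240 and 238 in DMSO and 162, 168 and 167 in PhenDC3, or 0.721 of DMSO (adjusted p = 0.000473, the highest among the members called).

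LIN54, the subunit of MuvB that contacts the cell cycle homology region, had 339, 315 and 301 normalized counts in DMSO and 330, 359 and 344 in PhenDC3. These groups overlapped, and no change was called (limma, log2 fold change 0.11, SE 0.09, adjusted p = 0.275). With reads thinned to the same total per library the log2 fold change of LIN54 was -0.05, also without a call. The median of all tested genes was -0.19 in that setting. Within each library the log2 ratio of LIN54 to MYBL2 was -1.61, -1.78 and -2.00 in DMSO and -0.56, -0.42 and -0.52 in PhenDC3, higher by 1.30 (exact permutation test over 6 libraries, two-sided, p = 0.1, the smallest that 3 against 3 can give, and 0.1 after adjustment over 3 pairs). Such a ratio does not depend on how the libraries were scaled. Whichever libraries of a group are paired, the ratio of LIN54 to MYBL2 is higher in PhenDC3 than in DMSO. Its test therefore adds nothing to the results for LIN54 and MYBL2 alone.

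**Figure D2:**
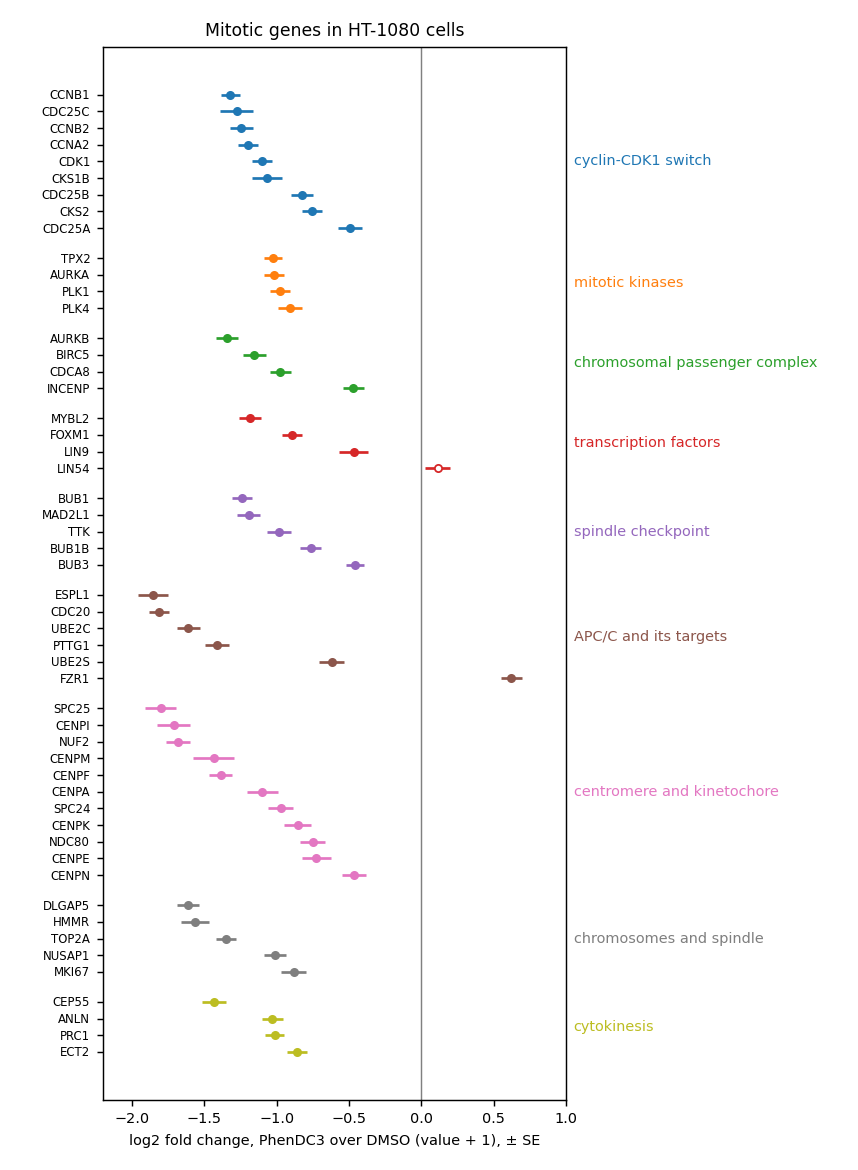
Log2 fold change of PhenDC3 over DMSO with its SE for each of the 52 members, by role, with filled points called by limma and the open point not called. Of the 52 points, 50 lie left of 0, LIN54 is open at 0.11 and FZR1 lies at 0.62.

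The spindle checkpoint genes fell, all 5 of them, with a median log2 fold change of -0.99, while 30.4% of all tested genes were lower. BUB1, a kinase that recruits checkpoint proteins to kinetochores, had 1656, 1734 and 1601 normalized counts in DMSO and 676, 703 and 735 in PhenDC3, or 0.423 of DMSO (limma, log2 fold change -1.24, SE 0.07, adjusted p = 4.64e-12). MAD2L1, the MAD2 protein that captures CDC20, had 1078, 1110 and 1158 in DMSO and 467, 549 and 449 in PhenDC3, or 0.438 of DMSO. The kinase TTK (MPS1) fell to 0.505 and BUB1B (BUBR1) to 0.588.

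BUB3, the adaptor that brings BUB1 and BUBR1 to kinetochores, fell the least of the 5. It had 2365, 2395 and 2551 normalized counts in DMSO and 1728, 1843 and 1754 in PhenDC3, or 0.728 of DMSO (limma, log2 fold change -0.46, SE 0.06, adjusted p = 2.49e-06). As a log2 value, the ratio of BUB3 to BUB1 was 0.51, 0.47 and 0.67 in DMSO and 1.35, 1.39 and 1.25 in PhenDC3. It was thus higher by 0.78 in PhenDC3, with no overlap (exact permutation test, two-sided, p = 0.1, adjusted p = 0.1). Whichever libraries of a group are paired, this ratio is higher in PhenDC3 than in DMSO. Its test therefore adds nothing to the results for BUB3 and BUB1 alone.

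The APC/C genes held both ends of the range. CDC20, the activator that the checkpoint inhibits, had 2150, 2272 and 2574 normalized counts in DMSO and 664, 652 and 668 in PhenDC3, or 0.284 of DMSO (limma, log2 fold change -1.81, SE 0.07, adjusted p = 3.51e-14). ESPL1 (separase), the protease that cuts cohesin once securin is destroyed, had 820, 789 and 756 in DMSO and 214, 262 and 182 in PhenDC3. Its ratio of 0.278 was the lowest of the 52 members. PTTG1, which encodes securin, fell to 0.375.

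The ubiquitin-conjugating enzymes of the APC/C also fell. UBE2C, which starts ubiquitin chains, had 1823, 1768 and 2083 normalized counts in DMSO and 671, 573 and 611 in PhenDC3, or 0.327 of DMSO. UBE2S, which extends them, fell less, to 0.650 (limma, log2 fold change -0.62, SE 0.09, adjusted p = 3.26e-06). CDC20, PTTG1 and both enzymes have copies in the genome, and the division of reads among them is uncertain.

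FZR1 (CDH1), the activator that takes over from CDC20 at mitotic exit and keeps the APC/C active in G1, went the other way. It had 627, 620 and 621 normalized counts in DMSO and 1008, 963 and 904 in PhenDC3, a 1.54-fold rise with no overlap of the groups (limma, log2 fold change 0.62, SE 0.07, adjusted p = 2.47e-07). FZR1 shares 70 exonic bases with MFSD12 on the opposite strand, which went from 526 to 1221 normalized counts; the part of shared reads was not tested. The log2 ratio of FZR1 to CDC20 was -1.78, -1.87 and -2.05 in DMSO and 0.60, 0.56 and 0.44 in PhenDC3, higher by 2.43 (exact permutation test, two-sided, p = 0.1, adjusted p = 0.1). Of the 3 pairs compared this one had the widest gap between the groups. FZR1 rose and CDC20 fell, each with no overlap, so their ratio had to separate the groups. The test of this ratio therefore adds nothing to the results for each gene.

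**Figure D3:**
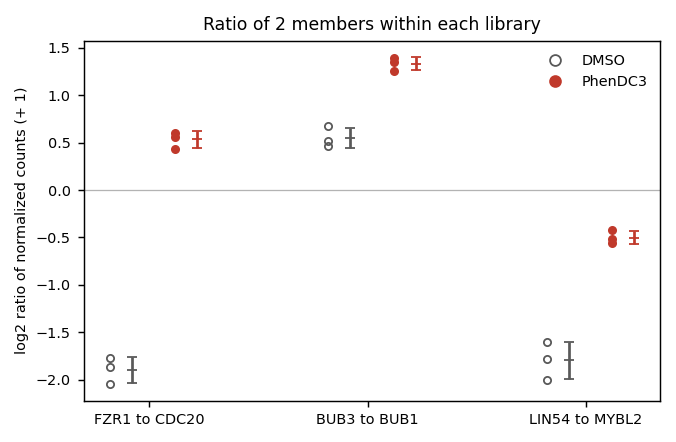
Log2 ratio of 2 members within each library for FZR1 to CDC20, BUB3 to BUB1 and LIN54 to MYBL2, with points for libraries and bars for mean ± SD over 3. The PhenDC3 libraries lie above the DMSO libraries in each pair, by 2.43, 0.78 and 1.30 on average.

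All 11 centromere and kinetochore genes fell, with ratios from 0.285 to 0.723, while 30.4% of all tested genes were lower. CENPA, the histone H3 variant that marks centromeres, had 281, 322 and 365 normalized counts in DMSO and 138, 156 and 154 in PhenDC3, or 0.463 of DMSO (limma, adjusted p = 3.11e-08). CENPA shares 138 exonic bases with SLC35F6 on the same strand, which went from 308 to 377. Among subunits of the inner kinetochore network, CENPI fell to 0.303, CENPM to 0.366, CENPK to 0.552 and CENPN, which reads the CENPA nucleosome, to 0.723. CENPN had 497, 460 and 480 in DMSO and 370, 336 and 332 in PhenDC3, and shares 457 exonic bases with CMC2 on the opposite strand, which went from 310 to 209.

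The 4 subunits of the NDC80 complex, which binds microtubules at the outer kinetochore, fell to between 0.285 and 0.592 of DMSO. SPC25 had 280, 283 and 278 normalized counts in DMSO and 81.7, 80.4 and 77.4 in PhenDC3, or 0.285 of DMSO (limma, log2 fold change -1.80, SE 0.11, adjusted p = 1.6e-11). NUF2 fell to 0.311. NDC80 had 462, 523 and 521 in DMSO and 294, 308 and 290 in PhenDC3, or 0.592 of DMSO, and SPC24 fell to 0.509. The ratio of NUF2 to NDC80, its partner in the complex, was 1.48, 1.36 and 1.42 in DMSO and 0.710, 0.773 and 0.747 in PhenDC3. That of SPC25 to SPC24, which form the other end of the complex, was 0.635, 0.593 and 0.557 in DMSO and 0.322, 0.342 and 0.333 in PhenDC3. Neither ratio overlapped between the groups, and neither was tested. Both were chosen after the values were seen. The large kinetochore proteins CENPF and CENPE, the second a kinesin motor, fell to 0.381 and 0.602.

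The 5 genes of chromosomes and the spindle fell, and 30.4% of all tested genes were lower. TOP2A (topoisomerase II alpha), which untangles sister chromatids, had 6747, 7221 and 6211 normalized counts in DMSO and 2498, 2833 and 2583 in PhenDC3, or 0.392 of DMSO (limma, log2 fold change -1.35, SE 0.07, adjusted p = 1.17e-12). MKI67, the Ki-67 proliferation marker that coats mitotic chromosomes, had 6265, 6294 and 4658 in DMSO and 3049, 3235 and 2977 in PhenDC3, or 0.538 of DMSO, the least change of the 5. DLGAP5 (HURP), a spindle protein, had the lowest ratio, 0.327, and HMMR (RHAMM) followed at 0.339.

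The cytokinesis genes fell, 4 of 4, and 30.4% of all tested genes were lower. PRC1, NUSAP1 and BUB1B each share exons with another annotated gene on the same strand, so some of their reads are of uncertain origin. CEP55, which brings the abscission machinery to the midbody, had 1038, 1151 and 1036 normalized counts in DMSO and 349, 423 and 424 in PhenDC3, or 0.371 of DMSO (limma, log2 fold change -1.43, SE 0.08, adjusted p = 1.53e-11). ANLN (anillin) fell to 0.488 and PRC1, which bundles microtubules of the central spindle, to 0.495. ECT2, the activator of RhoA at the furrow, had 2118, 2245 and 1967 in DMSO and 1092, 1249 and 1141 in PhenDC3, or 0.550 of DMSO.

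**Figure D4:**
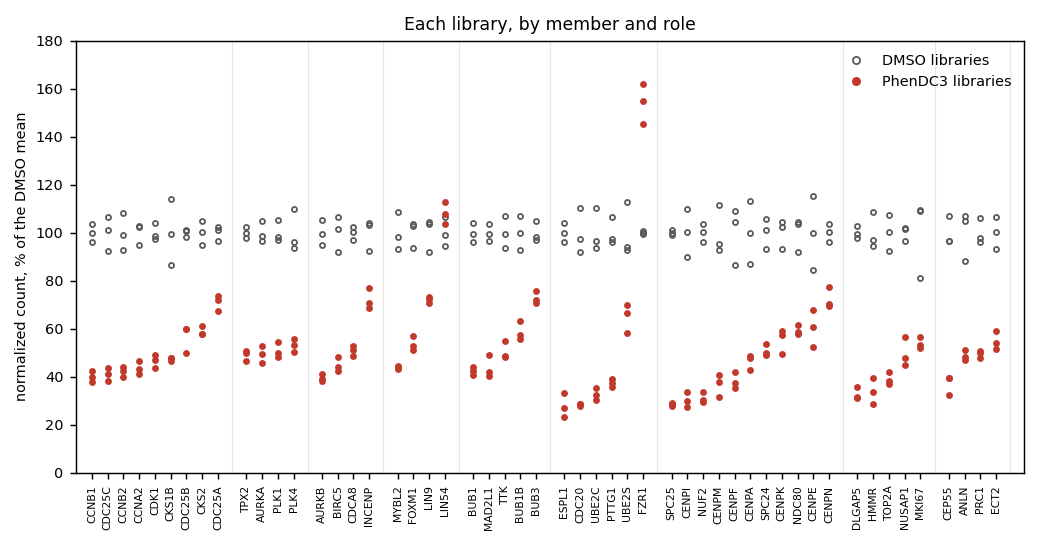
Normalized count of each member in each library as a percentage of its mean over the 3 DMSO libraries, with members grouped by role and ordered by fold change. PhenDC3 libraries (filled) lie below DMSO libraries (open) for 50 members, overlap them for LIN54 and lie above them for FZR1.

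Other genes of the same pathway, from 3 lists of 66 genes written from general knowledge, were read from the same fit. Of 29 other centromere and kinetochore genes, 26 were lower and 1 higher, with a median log2 fold change of -0.76. Among all tested genes 30.4% were lower and 29.2% higher. SKA3, of the SKA complex that holds microtubules, went from 479 ± 11.7 to 128 ± 25.5, and CENPH from 441 ± 54.0 to 126 ± 0.546. HJURP, the chaperone that deposits CENPA, went from 1563 ± 16.6 to 753 ± 43.5. CENPT was called higher, at 1.19-fold (limma, adjusted p = 0.0179). Its adjusted p by limma was 0.0747 when DMSO replicate 2 was left out and 0.0669 when PhenDC3 replicate 2 was, so that it was no longer called. CENPT shares 380 exonic bases with THAP11 on the opposite strand, which went from 474 to 321.

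Of 15 genes listed for the APC/C core, which are its subunits and the inhibitor FBXO5, 8 were lower (FBXO5 included) and 1 higher. Over all tested genes the shares were 30.4% lower and 29.2% higher. The median log2 fold change of this list was -0.19. It was -1.51 over the 6 genes above, which are the APC/C activators and enzymes, securin, and separase, which securin holds inactive. The difference between these lists was not tested. The subunit ANAPC5 went from 1611 ± 38.4 to 913 ± 28.6 normalized counts, a fall to 0.567, and FBXO5 (EMI1) from 539 ± 5.08 to 313 ± 25.4. CDC16, a subunit of its scaffold, rose 1.56-fold, from 879, 899 and 903 in DMSO to 1385, 1453 and 1341 in PhenDC3 (limma, adjusted p = 5.58e-08). The number of genes lower in this list dropped to 5 without DMSO replicate 3 and to 5 without PhenDC3 replicate 2.

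Among 22 other mitotic regulators 16 were lower and 4 higher, with a median log2 fold change of -0.78. The shares over all tested genes were 30.4% lower and 29.2% higher. CDCA3, a mitotic entry factor, went from 645 ± 38.0 to 245 ± 12.8, and SGO2 (shugoshin 2), which protects centromeric cohesion, from 761 ± 64.0 to 320 ± 21.2. MAD1L1, the MAD1 protein that anchors MAD2 at kinetochores, rose. It had 538, 526 and 632 normalized counts in DMSO and 2663, 2281 and 2374 in PhenDC3, a 4.32-fold difference (limma, log2 fold change 2.11, SE 0.08, adjusted p = 1.68e-14). No other annotated gene shares exonic bases with MAD1L1 in GENCODE release 29. The ratio of MAD1L1 to MAD2L1 was 0.499, 0.474 and 0.546 in DMSO and 5.70, 4.15 and 5.29 in PhenDC3, with no test made. Because MAD1L1 rose and MAD2L1 fell, each with no overlap, this ratio had to separate the groups.

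The other genes called higher in this list were MAD2L1BP (p31comet), which helps to switch the checkpoint off, at 1.35-fold, and RBBP4 and LIN37 at 1.23-fold and 1.44-fold. RBBP4 and LIN37, like LIN9 and LIN54, belong to the MuvB core. For LIN37 the adjusted p by limma was 0.0551 when PhenDC3 replicate 1 was left out. It was 0.0840 with DESeq2 and 0.0951 with thinned reads, so LIN37 was not called in either, and RBBP4 was not called with thinned reads (adjusted p by limma 0.0593). Both share exonic bases with other annotated genes. For RBBP4 these are 1706 with SYNC on the opposite strand, which went from 8.16 to 16.2 normalized counts. LIN37 shares 1180 with an antisense transcript, which went from 10.9 to 7.85, and 752 with a protein-coding gene on the same strand, so some of its reads are of uncertain origin. LIN52, the last core subunit, was not called, at 124 normalized counts in DMSO and 135 in PhenDC3. Of the 5 core subunits, LIN9 was thus lower, LIN54 and LIN52 were not called, and RBBP4 and LIN37 were called higher. The call of LIN37 was lost under the settings just given. That of RBBP4 was lost with thinned reads, where the median log2 fold change of all tested genes was -0.19. RBBP4 stayed called with edgeR (adjusted p = 0.000723) and with DESeq2 (adjusted p = 0.00108).

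DMSO replicate 3 differed from the other DMSO libraries in step with transcript length. MKI67, with an annotated transcript of 12678 bases, stood at 0.742 of the mean of DMSO replicates 1 and 2 in this library, CENPE at 0.786 and CENPF at 0.810. Short transcripts stood higher, CKS1B (912 bases) at 1.23 and CENPA (1452 bases) at 1.21. Across the 52 members Spearman's rho between length and this difference was -0.69, and across 16077 tested genes -0.38; genes of 1 library pair are not independent replicates. For the fold change of PhenDC3 over DMSO, rho with length was 0.33 over the members and 0.07 over the tested genes. The 26 shorter members had a median log2 fold change of -1.13 and the 26 longer ones of -0.95. Without DMSO replicate 3, 50 members were lower and 1 was higher, as with it, and the members' median log2 fold change was -1.03.

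**Figure D5:**
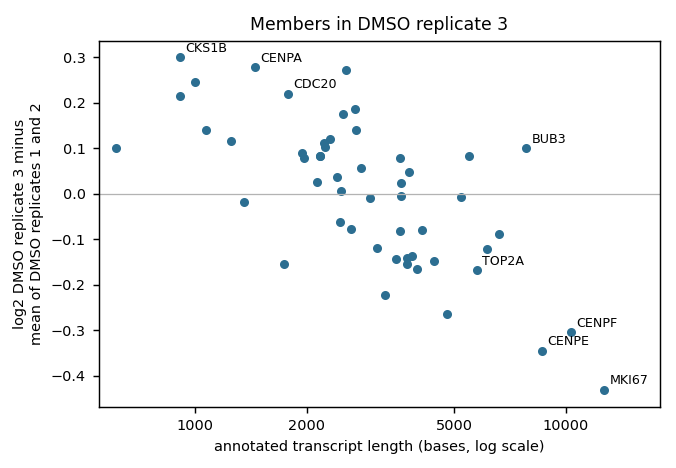
Log2 value of DMSO replicate 3 minus the mean of DMSO replicates 1 and 2 for each of the 52 members, against annotated transcript length in bases on a log axis. Most of the shorter transcripts lie above 0 and most of the longer ones below it, with MKI67 lowest and CKS1B highest.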

How the data were processed

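The values are a signal that the authors deposited, namely normalized counts. Dividing each library's column by what 1 read is worth in it gave whole reads for 100% of the values (relative tolerance 1e-06), so each library had been scaled by a single factor. The authors' deposited log2 fold change and adjusted p-value were used as an alternative only. The submitters' processing notes name TopHat2 2.0.11, Cufflinks 2.2.1, STAR 2.7, featureCounts and DESeq2 1.18.1 with the build hg19, without roles. For the annotation, filters and strand setting: not given in the sources used here. Per the labels' protocols, libraries came from a stranded kit.

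Limma 3.58.1 in R 4.3.3 was run on log2(value + 1) with a variance trend and no block, for the 16482 genes with a mean of 5 or more, with Benjamini-Hochberg adjustment. Folds are on that scale, which understates those of low genes; ratios are of group means. On the recovered reads edgeR 4.0.16 called 4806 genes lower and 4631 higher, and DESeq2 1.42.0 called 4168 and 4250. The fit was tested on simulated reads with few changed genes, as many up as down. In these data 59.6% of tested genes were called, so that test does not show how many calls here are false. The members, roles, lists and tests were chosen with earlier results of these data known. Per-library values and full statistics follow a rule naming 20 members and the extremes of each role, and in each further list the 3 called genes with the smallest adjusted p and those called higher. Ratios printed without a test, and the relation to transcript length, were chosen after the values were seen. Overlaps and transcript lengths came from GENCODE release 29 on GRCh38, matched by gene ID, and promoters from RefSeq by symbol; no coordinates of the deposited build are printed.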

Additional observations from a re-analysis of the deposited data

How the results depend on the processing

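The 50 falls and the 1 rise among the members were kept in number under the 20 alternatives run, except with a log2 fold change of 1 or more required, where 30 were lower and 0 higher. That requirement also left, by its own construction, 1065 genes lower and 1627 higher in all, 2 of 4 mitotic kinases, 2 of 4 passenger complex genes, 1 of 4 transcription factors, 2 of 5 checkpoint genes, 6 of 11 centromere and kinetochore genes, and 0 APC/C members higher. In the further lists it left 0 APC/C core genes lower and 0 higher, 7 other kinetochore genes lower and 0 higher, and 4 other regulators lower and 1 higher. The APC/C core count of 8 lower became 5 with no variance trend and 5 at an adjusted p under 0.01, and ranged from 5 to 8 lower and from 1 to 2 higher when 1 library was left out. The other kinetochore count of 1 higher became 0 with DESeq2, 0 in the authors' deposited table, 0 with thinned reads and 0 at an adjusted p under 0.01, and ranged from 0 to 1 when 1 library was left out. The 4 other regulators higher became 2 with thinned reads.

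Thinning every library to 7371056 reads moved the median log2 fold change of all tested genes to -0.19. The split moved to 6200 lower and 3236 higher, against 5012 and 4806. Thinned reads were compared without the size factors, and their totals include RNA of the mitochondrial genome, so this setting changes the scaling as well as the depth. In it 50 members were lower and FZR1 higher too, and LIN54 was at -0.055 without a call. Single members had the sign and call given above in 312 of 312 values that left out 1 library and in 706 of 728 others; the exceptions were the sign of LIN54 with thinned reads and 21 calls lost to the required fold. Within 150 bases before the start, TTTGAA was found for 45.5% of members (9.06% of all genes), TTTGAA or TTTAAA for 56.8% (15.3%; 79.5% of members in the whole window), and the G quadruplex pattern for 15.9% (20.5% of all genes, 31.9% of tested protein-coding genes).

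No pairing of the libraries by replicate number was seen. Correlations of same-numbered residuals were 0.0079, 0.071 and 0.027, and not every library correlated best with its own number. With 3 libraries in each group this cannot show whether same-numbered libraries shared a culture or batch. Blocking on the replicate number gave 5194 genes lower and 4961 higher, and 50 members lower and 1 higher, and changed no call in this text other than 5 in place of 4 other regulators higher. Members had 47.3 or more normalized counts in every library, so depth did not limit their detection.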

Other observations

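Copies of several members, annotated as pseudogenes, had values of their own. CDC20P1 was at 167 normalized counts in DMSO and 47.1 in PhenDC3, UBE2SP1 at 228 and 124, UBE2SP2 at 170 and 95.8, and PTTG3P at 34.4 and 15.3. Each moved in the direction of the gene it copies. Copies with low values that went the other way were AURKAP1 (1.23 to 13.3) and AURKAP2 (1.23 to 1.77), while AURKA fell, and UBE2CP2 (0.979 to 3.43), while UBE2C fell. Whether these reads came from the copies or from their parent genes was not tested.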
